A study of Oreolalax rhodostigmatus with 13 samples.

Results

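Sterol O-acyltransferase 1 (SOAT1), long-chain acyl-CoA dehydrogenase (ACADL) and an apolipoprotein L6-like protein (APOL6-like) were described in cave tadpoles of the red-spotted toothed toad, Oreolalax rhodostigmatus. The 3 unigenes (transcripts of a de novo assembly) were chosen by name from lists of light-inducible unigenes that the study had drawn from these same libraries, and they are 3 of 249088 unigenes in the table. Their levels across the groups are therefore given as a description, with no test. RNA was sequenced from 13 single tadpoles at Gosner stage 25, taken from the dark zone of a cave and nearly without skin pigment. The 4 control tadpoles were killed at once. The short-term exposed group had 4 h of light before sampling (6 tadpoles), and the long-term exposed group had 30 h (3 tadpoles). Exposed tadpoles were kept in a cage in the pool at the lit cave entrance, with a lamp at night, so light, time in the cage and time of day cannot be told apart. Eyeball, liver, dorsal skin and a piece of tail of each tadpole were pooled before extraction, though the labels leave out the tail, and tissues cannot be separated in the values.

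Animal cells store surplus cholesterol as esters in lipid droplets, and in mammals SOAT1, an enzyme of the endoplasmic reticulum, joins cholesterol to a fatty acid to make such esters. Fatty acids that are burnt instead are first activated with coenzyme A, carried into the mitochondrion by the carnitine system, and then shortened by beta-oxidation, whose first step for long chains is a dehydrogenation of the kind catalysed by ACADL. Most members of the apolipoprotein L family are known in humans as proteins of the cell interior, unlike the apolipoproteins of the blood. All 3 names are best protein hits in Xenopus (X. laevis for SOAT1 and ACADL, X. tropicalis for APOL6-like).

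SOAT1 (Cluster-29057.141920) had a value over 0 in the 3 long-term exposed tadpoles and in no other. It was listed at 0 FPKM (mapped fragments scaled to transcript length and library size) in all 4 control tadpoles and in all 6 short-term exposed tadpoles. In long-term exposed replicates 1, 2 and 3 its level was 9.20, 4.84 and 3.94 FPKM, a mean of 5.99 ± 2.81 FPKM (SD, n = 3). The long-term exposed tadpoles lay above every other tadpole, and replicate 1 was the highest of them. No fold change is given against groups listed at 0, since an exact 0 in a table without read counts may be no reads or a failed estimate.

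ACADL (Cluster-29057.109992) had a value over 0 in every long-term exposed tadpole and in 1 short-term exposed tadpole. It was listed at 0 FPKM in all 4 control tadpoles. In the short-term exposed group it was at 1.56 FPKM in replicate 3 and at 0 in the other 5 tadpoles. In long-term exposed replicates 1, 2 and 3 it was at 1.96, 2.50 and 3.27 FPKM (mean 2.58 ± 0.658 FPKM, SD, n = 3). The lowest long-term exposed tadpole was above the highest short-term exposed tadpole, so the groups did not overlap, but short-term exposed replicate 3 stood nearer to the long-term exposed group than to its own. The difference in mean log2(FPKM + 0.1) between long-term and short-term exposed tadpoles was 4.04, and it rests on the value added to the zeros: it was 1.60 with 1 FPKM added and 6.77 with 0.01 FPKM added. Without short-term exposed replicate 3 every short-term exposed tadpole was at 0.

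APOL6-like (Cluster-29057.124565) was the lowest of the 3 unigenes in the long-term exposed group and the only one with a value over 0 in control tadpoles. In control replicates 1 to 4 it was at 0.30, 0.14, 0.09 and 0 FPKM. It was at 0.10 FPKM in short-term exposed replicate 6 and at 0 in the other 5 short-term exposed tadpoles. In long-term exposed replicates 1, 2 and 3 it was at 0.33, 1.18 and 1.41 FPKM (mean 0.973 ± 0.569 FPKM, SD, n = 3). Long-term exposed replicate 1 was barely above control replicate 1, whereas replicates 2 and 3 stood clear of all other tadpoles. Control and short-term exposed tadpoles overlapped, with 3 of 4 control tadpoles and 1 of 6 short-term exposed tadpoles above 0. On the log2(FPKM + 0.1) scale the mean difference was 2.19 for long-term exposed against control, 3.07 for long-term against short-term exposed and -0.88 for short-term exposed against control. With 1 FPKM added these differences were 0.76, 0.91 and -0.15, and with 0.01 FPKM added 3.33, 5.80 and -2.47. Without long-term exposed replicate 1 the difference from the control group was 2.75.

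**Figure D1:**
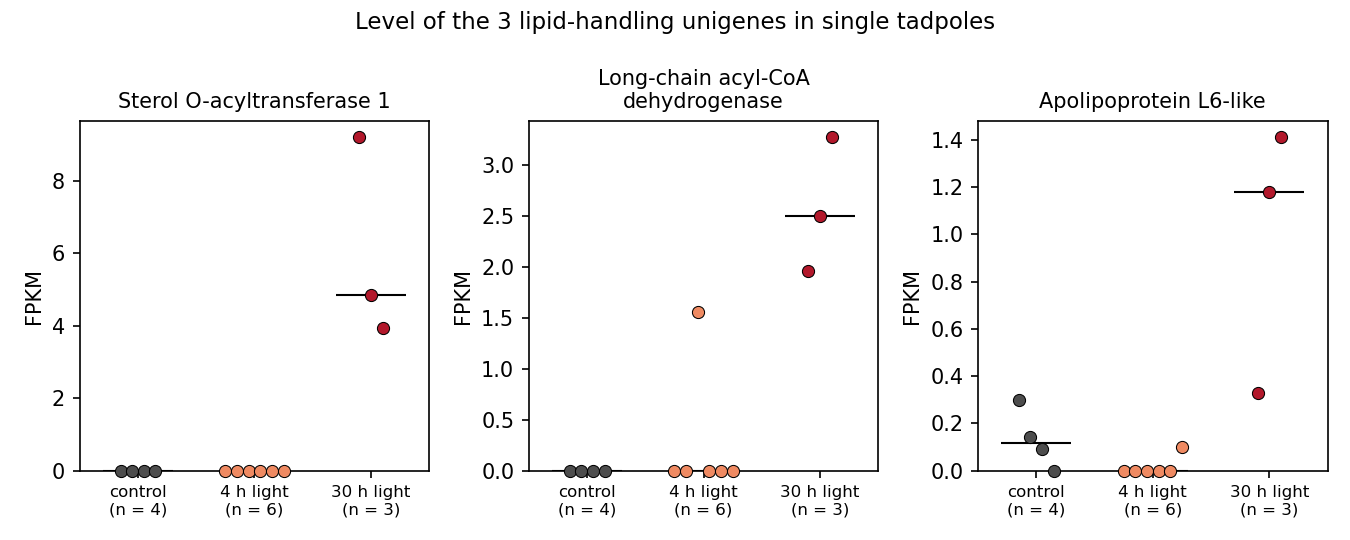
FPKM (vertical axes, linear, each panel with its own range) of SOAT1, ACADL and APOL6-like in the control, 4 h light and 30 h light groups. Points are single tadpoles and lines are group medians. The 30 h tadpoles sit above all others in each panel, from 3.94 to 9.20 FPKM for SOAT1, while 1 tadpole at 4 h carries ACADL at 1.56 FPKM and the lowest 30 h value of APOL6-like, 0.33 FPKM, is close to the highest control value, 0.30 FPKM.

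The long-term exposed tadpoles were not ordered alike by the 3 unigenes. SOAT1 was highest in replicate 1, in which both ACADL and APOL6-like were lowest. Since FPKM is scaled to length, levels may be set against each other within a tadpole. The level of SOAT1 was 4.69, 1.94 and 1.20 times that of ACADL in replicates 1, 2 and 3. It was 27.9, 4.10 and 2.79 times that of APOL6-like. The level of ACADL was 5.94, 2.12 and 2.32 times that of APOL6-like. The order SOAT1, ACADL, APOL6-like thus held in all 3 tadpoles, but the distance between SOAT1 and the other pair was widest in replicate 1. Over all 13 tadpoles, Pearson's r of log2(FPKM + 0.1) was 0.850 between SOAT1 and ACADL, 0.814 between SOAT1 and APOL6-like and 0.689 between ACADL and APOL6-like. These coefficients share libraries and zeros and mostly restate the gap between the long-term exposed group and the rest.

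Within the library of each long-term exposed tadpole, SOAT1 was among the more abundant unigenes. It was above 94.3, 86.7 and 85.8% of the unigenes with a value over 0 in replicates 1, 2 and 3. ACADL was above 77.8, 77.9 and 83.5% of them, and above 70.2% in short-term exposed replicate 3. APOL6-like lay lower, above 35.8, 63.9 and 69.9% in the long-term exposed tadpoles, and above 27.5, 15.1 and 5.6% in control replicates 1, 2 and 3 and 5.1% in short-term exposed replicate 6.

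Patterns like these were uncommon among the 147192 unigenes with at least 0.3 FPKM in at least 3 tadpoles. All 3 unigenes passed this filter, though only through their long-term exposed values. The patterns were written down from the values of the 3 unigenes themselves, so the counts and shares below are a description and no evidence that the 3 are unusual. A unigene above 0 in all 3 long-term exposed tadpoles and at 0 in the other 10 was found 337 times (0.229%), and SOAT1 is 1 of these. By mean level in the long-term exposed group, SOAT1 ranked 49 among the 337, whose median was 1.21 FPKM. Of the 337, 76 were highest in long-term exposed replicate 1, as SOAT1 was. A unigene above 0 in all 3 long-term exposed tadpoles, at 0 in all 4 control tadpoles and above 0 in exactly 1 short-term exposed tadpole was found 378 times (0.257%), and ACADL is 1 of these. The single short-term exposed tadpole was replicate 3 in 62 of the 378, against 27 to 80 for the other short-term exposed tadpoles, and 9 of the 62, ACADL included, were at 1.56 FPKM or more there. In all, 1715 unigenes (1.17%), SOAT1 and ACADL among them, were above 0 in all 3 long-term exposed tadpoles and at 0 in all control tadpoles. All 3 unigenes were among the 5797 (3.94%) that were higher in every long-term exposed tadpole than in every other tadpole, a pattern that was known when they were picked. Among unigenes with an amphibian best hit, as the 3 have, this pattern was common. It was met by 266 of them, the 3 included, where 477 such unigenes could be compared with each of the 3. The corresponding shares were 7.00% for long-term above every short-term exposed tadpole and 7.71% for long-term exposed above every control tadpole.

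Zeros throughout a group were uncommon among unigenes at or above the long-term level of SOAT1 or ACADL. These sets have no upper limit and include far more abundant unigenes, so the shares are not those of unigenes of like level. Levels and zeros were again taken from the chosen unigenes, so the shares are a description only. Of 12406 unigenes that reached at least 3.94 FPKM, the lowest long-term level of SOAT1, in every long-term exposed tadpole, 36 (0.290%) were at 0 in all 10 other tadpoles. Of 20806 that reached at least 1.96 FPKM, the lowest long-term level of ACADL, 343 (1.65%) were at 0 in all 4 control tadpoles. APOL6-like was not at 0 throughout any group.

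The libraries differed in depth. The table holds no read counts, so no counting interval can be given. Unigenes above 0 numbered 112990 to 134725 in control, 91929 to 136138 in short-term exposed and 140196 to 147363 in long-term exposed libraries. According to the study's sequencing summary the long-term exposed libraries were the deepest. The long-term exposed libraries thus had both the most unigenes above 0 and the 3 unigenes, and the part of depth in this was not tested. Among the other 10 libraries, short-term exposed replicate 4, with the most unigenes above 0 (136138), had none of the 3. Short-term exposed replicate 5, with the fewest (91929), had none either. Control replicates 1, 2 and 3, with 134725, 112990 and 128145, had APOL6-like, as did short-term exposed replicate 6, with 129770. Short-term exposed replicate 3, with 129991, had ACADL. Control replicate 4, with 131851, and short-term exposed replicate 2, with 129416, had none of the 3 unigenes. The number of unigenes above 0 is not itself read depth. Short-term exposed replicate 1 resembled the control libraries (mean r 0.6792) more than its own group (0.6249), and the 3 unigenes were at 0 in it.

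Some markers of the pooled tissues moved with the 3 unigenes too. The marker unigenes were matched by name in the study's tables, with earlier results of these data known. Their tests are therefore not independent evidence of a tissue shift. The summed FPKM of the 4 liver unigenes (albumin 1, 2 fibrinogen alpha chains and an apovitellenin-1 hit, of which the last was at 0 in some tadpoles) was 858 to 2190 in control, 542 to 2493 in short-term exposed and 8338 to 12096 in long-term exposed tadpoles. Nearly all of this sum was albumin 1, so it mainly follows that unigene. Albumin 1, the main protein of blood plasma, was at 8060, 9352 and 11982 FPKM in the long-term exposed tadpoles, against 852 to 2176 FPKM in control tadpoles (log2 difference 2.70 ± 0.51 SE, adjusted p = 0.0130, limma moderated test with Benjamini-Hochberg adjustment). In this comparison 3 of the 4 liver unigenes were higher, where 0.975% of all unigenes tested were called higher and 0.399% lower. The apovitellenin-1 hit was not called (adjusted p = 0.656, limma), and its groups overlapped. The 4 unigenes taken as macrophage markers were macrophage mannose receptor 1, fermitin 3, cathepsin K and cathepsin B, of which fermitin 3 was at 0 in some tadpoles. Whether these 4 are particular to macrophages was not tested. Their summed level was 88.3 to 130 FPKM in control, 105 to 133 FPKM in short-term exposed and 228 to 359 FPKM in long-term exposed tadpoles. Most of this sum was cathepsin B, at 70.6 to 108, 84.4 to 109 and 148 to 266 FPKM in the same order, so the sum mainly follows that unigene. All but cathepsin K, 3 of the 4, were called higher in long-term exposed than in control tadpoles. Crystallin gamma E, a lens protein, was also higher (log2 difference 3.84 ± 0.75 SE, adjusted p = 0.0173, limma). Fermitin 3 passed the filter only through the long-term exposed group. Nebulin and slow troponin I of skeletal muscle and the 2 desmoglein-2 unigenes of epidermis did not pass the test. Myomesin-2, also of muscle, was too low to be tested, at 0.69, 0.28 and 0.26 FPKM in long-term exposed tadpoles and at 0 in the other 10, as SOAT1 was. In bulk samples, more cells of a type and more RNA per cell cannot be told apart. The part of these tissues in the levels of SOAT1, ACADL and APOL6-like was not tested.

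**Figure D2:**
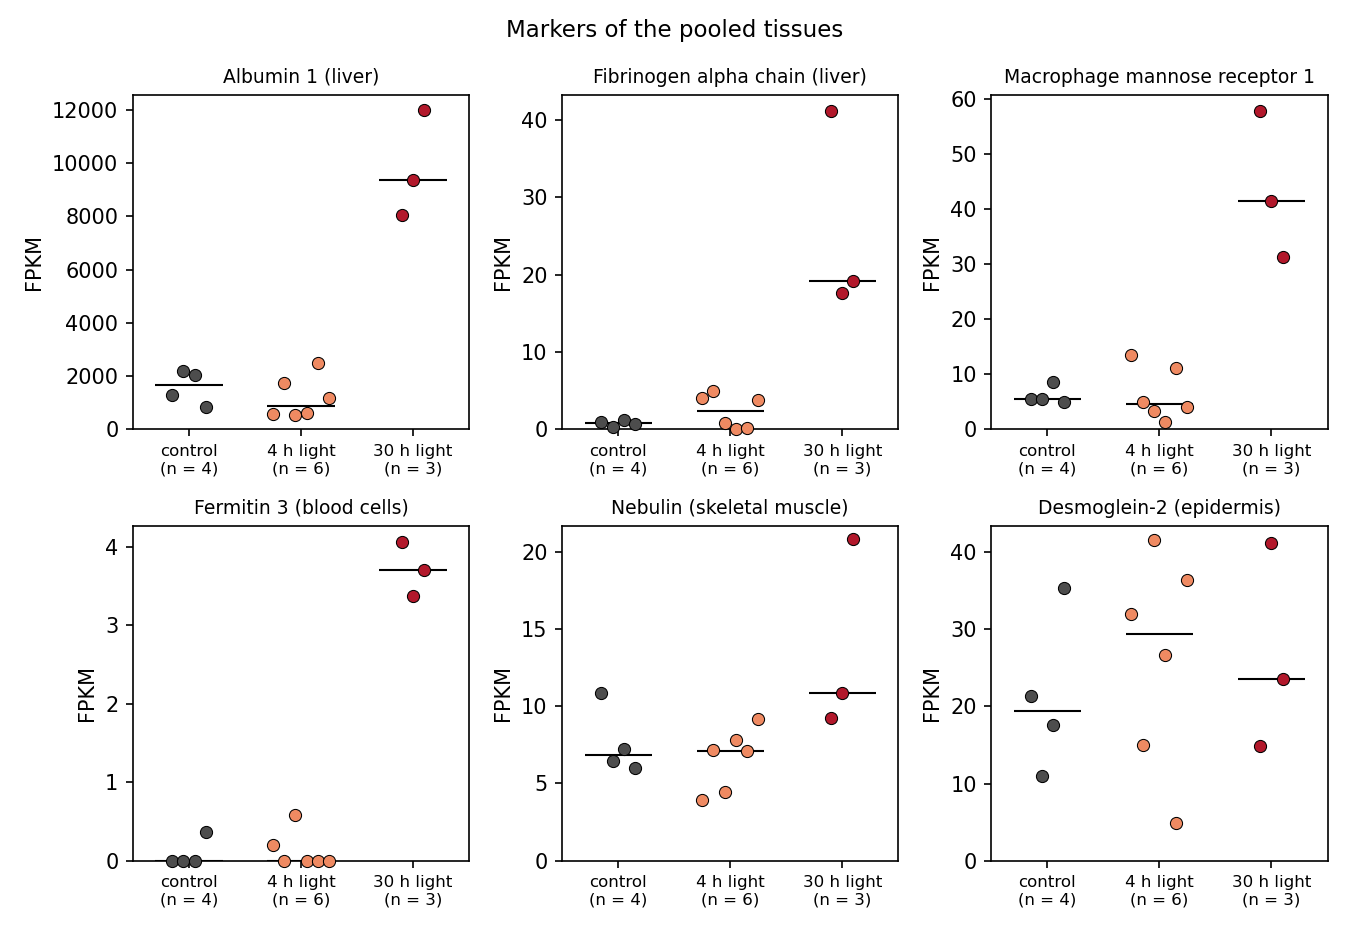
FPKM (vertical axes, linear, from 0) of 6 marker unigenes in the control, 4 h light and 30 h light groups. Points are single tadpoles and lines are group medians. Albumin 1 runs from 8060 to 11982 FPKM at 30 h, above every other tadpole, as do fibrinogen alpha chain, macrophage mannose receptor 1 and fermitin 3, while nebulin and desmoglein-2 overlap between groups.

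The steps around ACADL in fatty acid breakdown were followed in 6 further unigenes of the study's light-inducible lists, which were selected on these samples and are not independent evidence of a direction. Carnitine palmitoyltransferase 1 makes the acylcarnitines that enter mitochondria. The more abundant of 2 unigenes for its muscle form, CPT1B (Cluster-29057.85005), was at 2.74 to 4.43 FPKM in control tadpoles (median 3.73), at 1.12 to 9.88 FPKM in short-term exposed tadpoles (median 3.40) and at 17.06, 17.47 and 25.14 FPKM in long-term exposed tadpoles. Its long-term exposed values were above every other tadpole, but the difference from control was not called (log2 2.41 ± 0.58 SE, adjusted p = 0.0572, limma), whereas that from short-term exposed tadpoles was (2.52 ± 0.54 SE, adjusted p = 0.0208, limma). Unlike the ACADL unigene, this CPT1B unigene had a value over 0 in all 13 tadpoles. Other unigenes of ACADL were not looked for, so its zeros do not show that the gene was silent.

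The liver form CPT1A (Cluster-29057.73439) was closer in pattern to ACADL. It was at 0 FPKM in all 4 control tadpoles, at 0.07, 0.14 and 0.25 FPKM in short-term exposed replicates 1, 4 and 6 and at 0 in the other 3. In long-term exposed replicates 1, 2 and 3 it was at 0.77, 0.55 and 1.27 FPKM. The long-term exposed values were above all others. CPT1A passed the filter only through that group, so its p-value is not given, and its call, counted below, is no evidence of a difference. The short-term exposed tadpoles with CPT1A did not include replicate 3, the one with ACADL.

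The acyl-CoA synthetase ACSL5, which activates long-chain fatty acids, was at 0.96, 1.70 and 0.86 FPKM in long-term exposed tadpoles, against 0.17, 0, 0.20 and 0 FPKM in control tadpoles. ACSL5 also passed the filter only through the long-term exposed group, so its p-value is not given. HACL1, an enzyme of peroxisomal alpha-oxidation, was at 4.09, 5.06 and 4.55 FPKM in long-term exposed tadpoles, against 0.24, 0, 1.69 and 0.47 FPKM in control tadpoles (log2 3.43 ± 1.19 SE, adjusted p = 0.230, limma). An enoyl-CoA hydratase, the enzyme type that acts next after ACADL in beta-oxidation, was at 0, 3.08 and 3.33 FPKM in the long-term exposed tadpoles and at 0 in all others. Its best hit is in the slime mould Dictyostelium, and it did not pass the filter, so it was not tested.

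SOAT1 has 1 other unigene named for cholesterol handling beside it in these lists. NPC1, which moves cholesterol out of lysosomes in mammals, was at 0, 0.70 and 0.64 FPKM in long-term exposed replicates 1, 2 and 3 and at 0 in all other tadpoles, with a best hit in a penguin. Long-term exposed replicate 1, the tadpole with the most SOAT1, was thus at 0 for NPC1. Stearoyl-CoA desaturase (SCD), which makes the monounsaturated fatty acids that SOAT1 prefers in mammals, had a human best hit and was at 0, 0.61 and 0.73 FPKM in the long-term exposed tadpoles and at 0 elsewhere. NPC1, SCD and the enoyl-CoA hydratase are the 3 of 20 listed lipid unigenes whose best hit was not amphibian, and all 3 were at 0 in long-term exposed replicate 1, whereas none of the 17 with an amphibian hit was. NPC1 and SCD did not pass the filter either. Whether these 3 unigenes are transcripts of the tadpole was not tested.

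Of the 20 other lipid-related unigenes in the study's lists, 16 passed the filter, 8 of them only through their long-term exposed values. The counts below therefore describe a selection made on these samples and support nothing on their own. Of the 16, 6 were called higher in long-term exposed against control tadpoles (0.975% of all unigenes), 7 in long-term against short-term exposed tadpoles (2.09% of all unigenes) and 0 in short-term exposed against control tadpoles (0.0408% of all unigenes), where 1 had an unadjusted p under 0.05. None was called lower in any of these comparisons (0.399, 0.957 and 0.0401% of all unigenes, in the same order). The F test over the 3 groups called 6 of the 16 (2.25% of all unigenes). The median log2 difference was 2.91 for long-term exposed against control, where that of all unigenes tested was 0.20, and 2.62 for long-term against short-term exposed, where that of all was 0.23. The 6 called against control were CPT1A, the lysosomal thioesterase PPT2-A, arylsulfatase A (ARSA, which removes sulphate from sulfatides), the lipase PNLIPRP2, GPLD1 (which cuts glycosylphosphatidylinositol anchors) and phospholipase D1 (PLD1). All 6 passed the filter only through the long-term exposed group, as did 4 of the 7 called against short-term exposed tadpoles. Such calls are listed as a description and are no evidence of a difference. Passing in this way favours a difference, though ACSL5 and DDHD2 passed likewise and were not called against control. They are also the 6 of the 16 that were at 0 in all control tadpoles, so their fitted sizes and the median above depend on the value added to the zeros.

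PLD1 alone shared the exact pattern of SOAT1. It was at 0.87, 0.98 and 0.38 FPKM in long-term exposed replicates 1, 2 and 3 and at 0 in all other tadpoles. GPLD1 came near to it, with 3.52, 2.27 and 0.84 FPKM in the long-term exposed tadpoles, 0.06 FPKM in short-term exposed replicate 1 and 0 elsewhere. Like SOAT1, GPLD1 was highest in long-term exposed replicate 1 and lowest in replicate 3. PNLIPRP2 had the same order, at 2.95, 2.00 and 1.32 FPKM.

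At the other end of the range stood lysosomal enzymes that every tadpole expressed. Acid ceramidase (ASAH1) was at 44.88, 52.06 and 47.54 FPKM in long-term exposed tadpoles, against 26.05, 24.57, 19.74 and 31.24 FPKM in control tadpoles (log2 0.94 ± 0.30 SE, adjusted p = 0.179, limma). The phospholipase B-like PLBD2 was at 10.70, 12.79 and 10.97 FPKM in long-term exposed tadpoles, against 3.80 to 4.13 FPKM in control tadpoles (log2 1.51 ± 0.36 SE, adjusted p = 0.0555, limma). Neither was called, although in both every long-term exposed tadpole was above every control tadpole. Of the other phospholipid and glyceride enzymes, the 2 unigenes of diacylglycerol lipase alpha (DAGLA), DDHD2 and PLA2G6 were not called against control. Of these, DDHD2 passed the filter only through the long-term exposed group. In long-term against short-term exposed tadpoles 1 DAGLA unigene (Cluster-29057.112713) was higher (log2 3.66 ± 0.79 SE, adjusted p = 0.0222, limma). The flippase ATP11A, at 0.13 to 0.21 FPKM in long-term exposed tadpoles and at most 0.07 FPKM elsewhere, did not pass the filter. In all, 17 of the 20 were higher in every long-term exposed tadpole than in every other tadpole, a pattern that the study's selection favours (3.94% of all unigenes).

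The counts over the study's lists changed with the tadpoles left out and with the value added. Leaving out long-term exposed replicate 1, 2 or 3 brought the 6 calls against control and the 7 calls against short-term exposed tadpoles to 0. Part of this fall was set by the filter, which was applied again each time. CPT1A, GPLD1 and PLD1 were below 0.3 FPKM in every control and short-term exposed tadpole, so they no longer passed and were not tested. The other called unigenes still passed it and were no longer called. With 1 FPKM added in place of 0.1 the calls were 11 and 12.

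**Figure D3:**
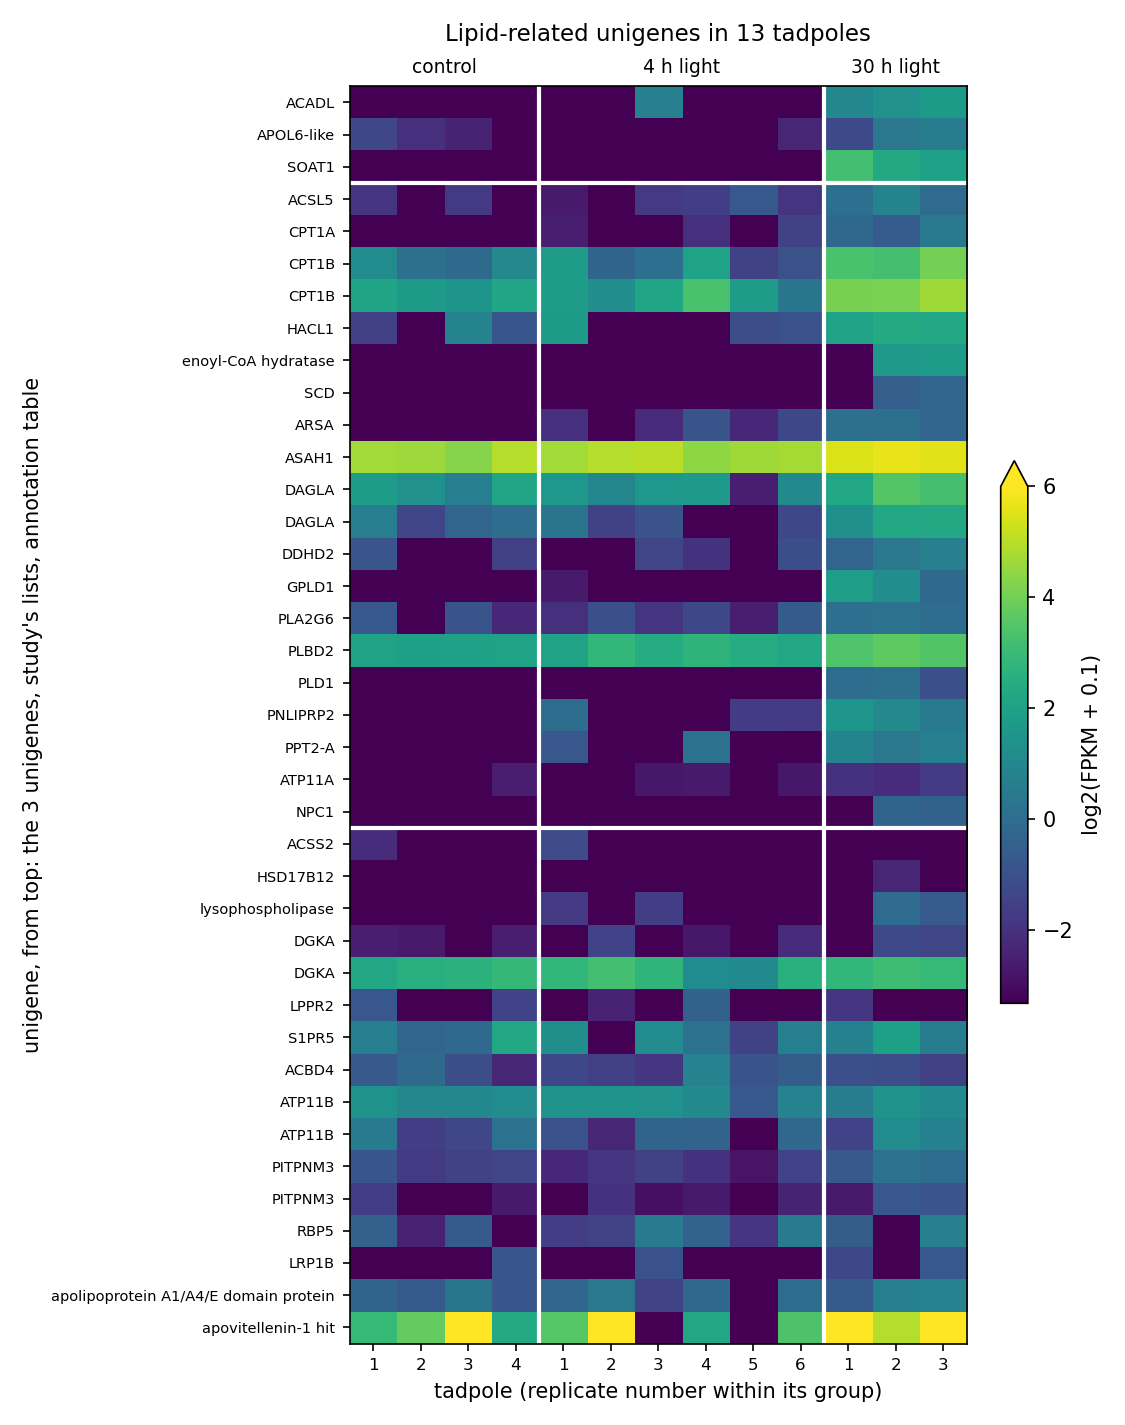
Level of the 3 unigenes (top block), of 20 other lipid-related unigenes of the study's lists (middle block) and of 16 from its annotation table (bottom block) in 13 tadpoles, as log2(FPKM + 0.1) in colour, with the darkest shade for a value of 0. Columns are single tadpoles of the control, 4 h light and 30 h light groups. SOAT1 and PLD1 are dark in all but the 3 tadpoles at 30 h, ACADL has 1 bright cell at 4 h, and no unigene of the bottom block has a value in all 3 tadpoles at 30 h and 0 in all controls.

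Lipid-related unigenes outside the study's light-inducible lists could be looked for only in a part of its annotation table. That part held entries for 1268 of the 249088 unigenes, so the number found does not show how many there are. It held 16 lipid-related unigenes outside those lists, and 10 passed the filter. By limma, 0 of the 10 were called in long-term exposed against control tadpoles (0 with an unadjusted p under 0.05), where 0.975% of all unigenes were called higher and 0.399% lower. In short-term exposed against control tadpoles 0 were called (0 unadjusted), where the shares of all unigenes were 0.0408 and 0.0401%. In long-term against short-term exposed tadpoles 0 were called (2 unadjusted), where the shares were 2.09 and 0.957%. The F test over the groups called 0 (2 unadjusted), against 2.25% of all unigenes, and the one-way test of FPKM without a logarithm called 1, against 2.97% of all unigenes. At such shares a count of 0 or 1 among 10 is near the background. Unigenes in the study's lists were left out of the 16 but not out of these shares, which favours a low count. The counts therefore set these unigenes apart in neither direction. The median log2 difference was 0.67 for long-term exposed against control, -0.37 for short-term exposed against control and 1.12 for long-term against short-term exposed, where the medians of all unigenes were 0.20, -0.10 and 0.23.

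The single unigene called by the one-way test was PITPNM3 (Cluster-29057.14156), a phosphatidylinositol transfer protein. It passed the filter only through the long-term exposed group, at 0.51, 1.05 and 0.89 FPKM. Its p-values are therefore not given, and the call is no evidence of a difference. In limma its difference from control was log2 1.18 ± 0.61 SE and was not called. PITPNM3 was the 1 of the 16 that was higher in every long-term exposed tadpole than in every other tadpole. The closest of the 16 to the lipoproteins, a unigene with an apovitellenin-1 hit, was at 216, 30.7 and 83.4 FPKM in long-term exposed tadpoles, against 7.56, 13.3, 70.3 and 5.15 FPKM in control tadpoles, and its groups overlapped. An uncharacterised protein with an apolipoprotein A1/A4/E domain was at 0.52, 1.54 and 1.66 FPKM in long-term exposed tadpoles and did not pass the test (log2 difference from control 0.66 ± 0.82 SE, adjusted p = 0.798, limma). The other 7 tested unigenes (ACBD4, LRP1B, RBP5, S1PR5, a DGKA unigene and 2 of ATP11B) differed from control by -0.19 to 0.91 on the log2 scale, with adjusted p from 0.720 to 0.973 (limma). Of these, LRP1B passed the filter only with its long-term exposed values. A second PITPNM3 unigene, a second DGKA unigene, HSD17B12, ACSS2, a lysophospholipase and LPPR2 were too low to be tested.

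**Figure D4:**
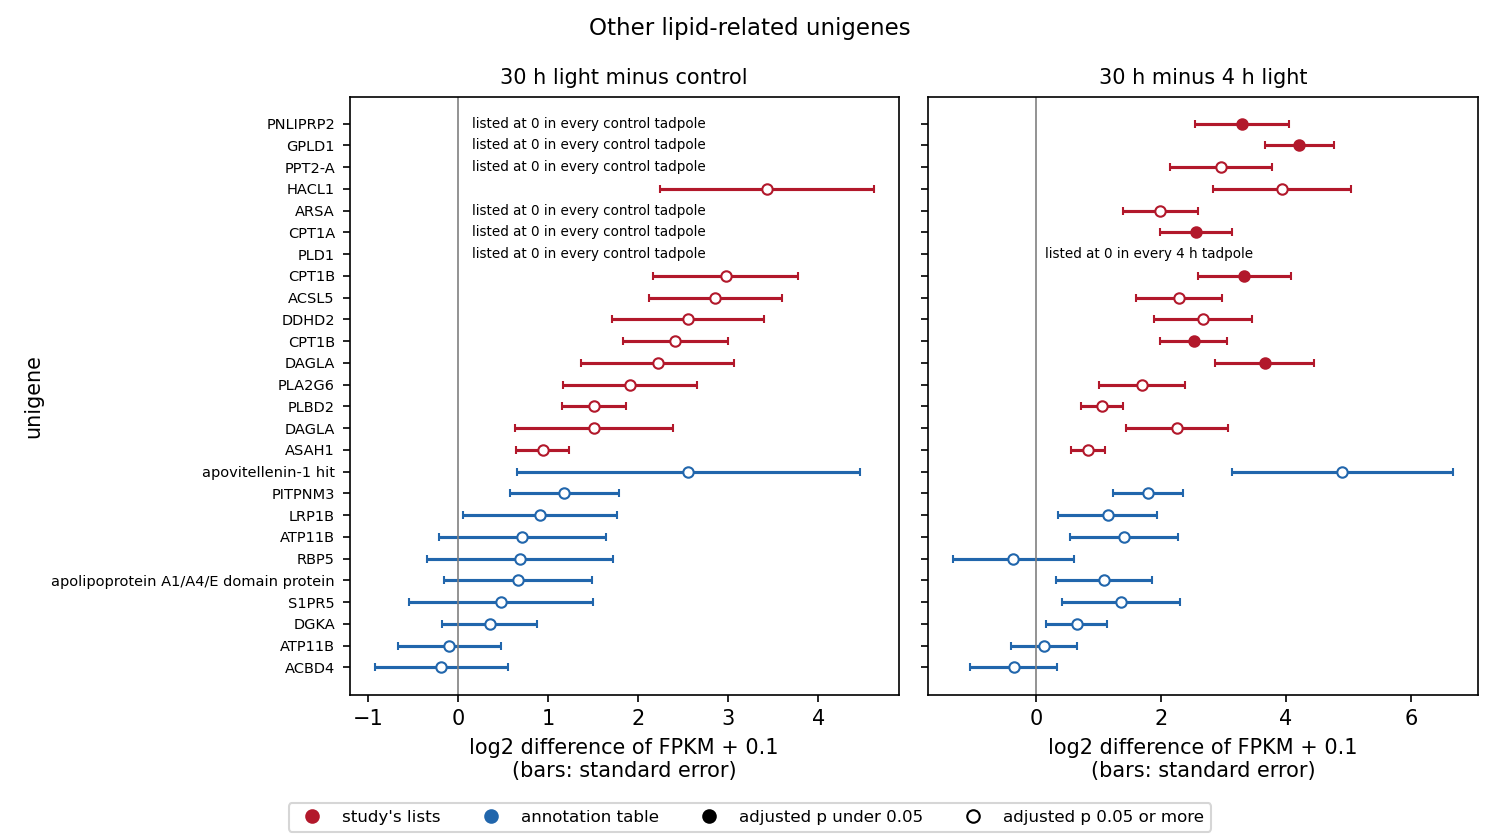
Difference in mean log2(FPKM + 0.1) for lipid-related unigenes, 20 of 26 tested drawn on the left and 25 on the right: 30 h light minus control (left) and 30 h minus 4 h light (right), with standard errors as bars. Red points are unigenes of the study's lists, selected on these samples, blue points are from the annotation table, and filled points have a limma adjusted p under 0.05. No difference is drawn where the comparison group was listed at 0 throughout, which leaves out all 6 unigenes called against control, so no point of either colour is filled on the left. On the right 6 red points and no blue point are filled. Among the filled ones, CPT1A, PNLIPRP2 and GPLD1 passed the filter only through the 30 h tadpoles. Their calls are no evidence of a difference, and the 2 colours cannot be compared by their filled points.

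The named unigenes most like each of the 3 were ranked by Pearson's r of log2(FPKM + 0.1) over the 13 tadpoles, among 477 unigenes with an amphibian best hit. All those named here stand in the study's own lists, and the coefficients share libraries and zeros. For SOAT1 they were a hemicentin-1-like protein (r = 0.9999, at 0.61, 0.46 and 0.39 FPKM in long-term exposed tadpoles), the RNA helicase DHX16 (r = 0.990) and 3 uncharacterised Xenopus proteins (r from 0.988 to 0.993). All 5 were at 0 in the same 10 tadpoles as SOAT1 and were lower than it in each long-term exposed tadpole. Over all 147191 other unigenes, 641 had r over 0.9 with SOAT1. How many of the 641 share its run of zeros was not counted.

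ACADL had fewer such neighbours, 112 of 147191 with r over 0.9, of which 10 had an amphibian best hit. Only those with such a hit were ranked. The nearest named one was a hypothetical Xenopus protein (Cluster-29057.46194, r = 0.9985) at 8.88, 13.63 and 14.03 FPKM in long-term exposed tadpoles. It was at 8.79 FPKM in short-term exposed replicate 3 and at 0 in all 9 others. It thus had values in exactly the 4 tadpoles in which ACADL had them, and was several times higher in each. The next named ones were a cryptochrome-1-like protein (r = 0.947), aldehyde oxidase 1 (0.942), a melanoregulin-like protein (0.938) and the kinase HUNK, homolog A (0.932). Each of these was also above 0 in short-term exposed replicate 3, at 0.14 to 0.59 FPKM. Unlike ACADL, all but aldehyde oxidase 1 were also above 0 in a control tadpole. The cryptochrome-1-like protein was at 0.03 FPKM in control replicate 1, and the melanoregulin-like protein and HUNK were at 0.28 and 0.09 FPKM in control replicate 2.

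For APOL6-like 123 of 147191 unigenes had r over 0.9, and the named ones were sodium/glucose cotransporter 4 (r = 0.958), a collagen alpha-1(XVI)-like protein (0.945), transcription elongation factor XSII-K1 (0.921), a C-type lectin (0.921) and lactadherin (0.905). Sodium/glucose cotransporter 4 was at 1.24, 3.85 and 3.07 FPKM in long-term exposed replicates 1, 2 and 3 and, like APOL6-like, was lowest there in replicate 1 and above 0 in control replicates 1 and 2 (0.66 and 0.17 FPKM). Lactadherin shared the order of the long-term exposed tadpoles (11.6, 22.3 and 27.1 FPKM) without any zeros, at 9.63 to 11.5 FPKM in control tadpoles and 6.40 to 10.4 FPKM in short-term exposed tadpoles.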

How the data were processed

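RNA of 13 tadpoles (4 control, 6 short-term exposed, 3 long-term exposed, grouped by the sample labels) was sequenced as paired-end reads. The authors removed adapter, poly-N and low-quality reads, assembled all libraries together with Trinity and deposited FPKM values for 249088 unigenes, with 2 decimals. Aligner and counting tool: not given in the sources used here. Names are best protein hits from the study's tables, held for 1581 unigenes. Other assembled pieces of the same genes were not looked for.

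Values were taken to log2(FPKM + 0.1). Unigenes with at least 0.3 FPKM in at least 3 libraries (147192) were fitted with limma 3.58.1 in R 4.3.3, with 3 groups, a mean-variance trend and Benjamini-Hochberg adjustment over all of them. The fit was first run on simulated data with normal noise, in which only unigenes of higher level and limited spread were changed. That run does not show how the fit behaves for low unigenes with many zeros. The text names the 3 unigenes, every unigene matched by the lists of lipid and marker names, and the 5 named unigenes most like each of the 3, apart from those singled out for a count. The 3 unigenes and the lists were chosen with earlier results of these data known. Other added values, filters, scalings, libraries left out and a replicate block were tried.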

Additional observations from a re-analysis of the deposited data

Results flagged for a closer look

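A library that stood apart from the rest of its group by Dixon's criterion was looked for over the 3 unigenes and the other lipid-related unigenes. Of 59 groups of 4 or 6 tadpoles, 15 (25.4%) had one. The criterion marks about 5% of groups by chance for normally distributed values, but these values hold many exact zeros, so the shares cannot be compared. In 8 of the 15 a single tadpole had a value and all others were at 0, which meets the criterion whatever the value. Among the 3 unigenes these were ACADL in short-term exposed replicate 3 (1.56 FPKM) and APOL6-like in short-term exposed replicate 6 (0.10 FPKM).

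Short-term exposed replicate 1 stood apart for 4 unigenes, HACL1 (3.24 FPKM, next highest 0.41), PNLIPRP2 (0.89 FPKM, next highest 0.21), GPLD1 (0.06 FPKM) and ACSS2 (0.34 FPKM). Short-term exposed replicate 4 stood apart for ACBD4 (1.66 FPKM) and LPPR2 (0.64 FPKM), replicate 2 for the apovitellenin-1 hit (74.29 FPKM) and replicate 3 for LRP1B (0.41 FPKM). In the control group the tadpoles apart were replicate 1 for ACSS2 (0.13 FPKM), replicate 3 for the apovitellenin-1 hit (70.34 FPKM) and, on the low side, for DGKA (0 FPKM, next 0.06), and replicate 4 for ATP11A (0.07 FPKM) and LRP1B (0.47 FPKM).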

How the results depend on the processing

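The 4 log2 differences given for ACADL and APOL6-like were each recomputed under 18 alternatives. All 72 values kept the direction and 64 moved by less than the spread within groups, although 17 of them leave out a tadpole that the difference does not use. The exceptions were the value added before the logarithm. With 1 FPKM the differences were 0.76, -0.15 and 0.91 for APOL6-like (long-term exposed against control, short-term exposed against control, long-term against short-term exposed) and 1.60 for ACADL (long-term against short-term exposed), and with 0.01 FPKM they were 3.33, -2.47, 5.80 and 6.77. Leaving out 1 tadpole at a time gave 1.84 to 2.75, -1.23 to -0.56, 2.72 to 3.63 and 3.86 to 4.71. No difference was computed for SOAT1, nor for ACADL against control, where the comparison group is at 0. Over the 10 tested unigenes of the annotation table, each of the 4 counts called was 0 under all 21 alternatives, except that the one-way test of untransformed FPKM, run only for the F test over the groups, gave 1. Over the study's lists the 6, 7 and 6 calls (long-term exposed against control, long-term against short-term exposed, F test) were 11, 12 and 12 with 1 FPKM added, 3, 4 and 2 with 0.01 FPKM added, and 0 to 7, 0 to 9 and 0 to 11 with 1 tadpole left out, the lowest without any of the long-term exposed tadpoles and the highest without short-term exposed replicate 1. When replicate 1 of both exposed groups was left out, a choice made after seeing the data, they were 0, 4 and 1. A filter of 1 FPKM gave 3 calls against control. Of the 6 called unigenes 4 no longer passed it, so the 3 calls were not all among the 6. Leaving out a long-term exposed tadpole also kept CPT1A, GPLD1 and PLD1 from passing the main filter, so part of that fall was set in advance. For the other changes the cause was not tested. Same-numbered tadpoles did not deviate together (correlations from -0.109 to 0.019), so the numbers do not pair them. With the replicate number as a block the differences were 2.01, -1.05, 3.06 and 3.53, the annotation table had 0 calls and the study's lists 1, 0 and 0.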
